A study of Mus musculus with 3 samples.

Results

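The proteasome genes were examined for Yap1 binding in mouse heart. They were all genes in the deposited region table whose symbol begins with Psma, Psmb, Psmc, Psmd, Psme, Psmf or Psmg and a digit, with pseudogenes left out. This took 44 of the 13464 gene symbols in the table, listed at 67 of its 22020 regions. One of the 44, Psmc3ip, is no proteasome gene: its product is a meiotic recombination factor that was named for binding Psmc3. The Yap1 signal was measured by chromatin immunoprecipitation and sequencing (ChIP-seq) in hearts of wild-type male C57BL/6J mice 7 days after transverse aortic constriction (TAC), which narrows the aorta and loads the left ventricle, and 7 days after a sham operation. There was 1 anti-Yap1 library per operation, with 3 mice per operation in the design, and 1 input library from a pool of both operations that was not analysed here. Whether a library pooled its mice is not stated. Without replicate libraries no difference below was tested, and higher or lower describes these 2 libraries.

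The proteasome is the protease complex that degrades proteins tagged with ubiquitin. Its 20S core is a barrel of alpha rings, which gate the entrance, around beta rings, which hold the catalytic sites. The 19S regulatory particle caps the barrel: its base holds a ring of ATPases that unfold substrates, and its lid holds the deubiquitinase that removes the ubiquitin chain. Inducible beta subunits replace the constitutive ones under interferon, activator caps replace 19S, and dedicated chaperones assemble the parts. In the heart the proteasome takes part in the turnover of contractile proteins. Yap1, the transcriptional co-activator at the end of the Hippo pathway, does not bind DNA itself and reaches it mainly through TEAD factors.

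Yap1 regions sat on the starts of nearly all proteasome genes that had a region. Of the 44 genes, 43 (97.7%, exact 95% binomial interval 88.0 to 99.9%) had a region that spans the gene's start, against 9034 of all 13464 genes (67.1%). The exception was Psmb11, a thymus-specific catalytic subunit, whose 1 region was that of the neighbouring Psmb5. The trait was not particular to proteasome genes. A start region was also found for 75 of 80 cytosolic and 62 of 68 mitochondrial ribosomal protein genes in the table. Of 48 subunits, activators, inhibitors and chaperones of the family, 43 (89.6%, 77.3 to 96.5%) had a region. The 5 without one were the alpha subunit genes Psma5 and Psma8, the lid gene Psmd6 and the chaperone genes Psmd10 and Psmg3, so they have no value here. By current symbol, 10924 of 21896 protein-coding RefSeq genes (49.9%) had a region. A further 2 RefSeq symbols that fit the name rule, Psme2b and Psme3ip1, do not appear in the table, where Fam192a, an older symbol of Psme3ip1, is listed. The midpoints of the 43 start regions lay 4 to 1477 bp from the start, with a median of 176 bp. Over the start regions of all genes the median was 271 bp. Within 500 bp lay 36 of the 43, against 6311 of the 9034. The authors counted a promoter to each of the 43, as to 100% of the start regions of all genes. They counted 2 or more promoters to 16 (37.2%, against 40.9% of the start regions of all genes). A CpG island was counted to 40 (93.0%, against 86.7%). The 3 without a CpG island were Psmb6, Psmb8 and Psmb10.

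The promoters below include those of the genes with the highest and the lowest ratio of TAC to sham at the start, Psmc4 and Psmd9, and of genes described further on. Each is the RefSeq window on GRCm38.p6 from 250 bases before to 50 bases after the start, written 5′ to 3′ in the direction of the gene. Capitals mark matches to 7 motifs on either strand: TGACNNNGC (core of the antioxidant response element of Nfe2l1 and Nfe2l2), GGAATG (TEAD core), TGACTCA (the AP-1 site), CCAAT (the box bound by NF-Y), CCGGAAG (a site of ETS factors), CACGTG (the E-box) and CGCATGCG (nuclear respiratory factor 1). An AP-1 site followed by GC would count for the first motif too, and the last pair of motifs reads the same on both strands. The rule for shown sequences took Psmc4, and Psmd2 for the lowest ratio by strongest region (-0.92). That region lies 20838 bp downstream of the Psmd2 start, whose own region, at the printed promoter, had a ratio of -0.41. Psmb6, Psma2, Psma6 and Psmd9 were added after their values were seen.
Psmc4, chr7:28050043-28050342, minus strand: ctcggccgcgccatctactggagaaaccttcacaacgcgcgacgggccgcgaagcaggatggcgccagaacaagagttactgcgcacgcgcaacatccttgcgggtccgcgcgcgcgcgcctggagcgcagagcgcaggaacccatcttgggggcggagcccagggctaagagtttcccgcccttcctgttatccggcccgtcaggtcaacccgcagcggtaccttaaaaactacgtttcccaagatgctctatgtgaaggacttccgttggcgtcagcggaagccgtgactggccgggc
Psmb6, chr11:70525107-70525406, plus strand: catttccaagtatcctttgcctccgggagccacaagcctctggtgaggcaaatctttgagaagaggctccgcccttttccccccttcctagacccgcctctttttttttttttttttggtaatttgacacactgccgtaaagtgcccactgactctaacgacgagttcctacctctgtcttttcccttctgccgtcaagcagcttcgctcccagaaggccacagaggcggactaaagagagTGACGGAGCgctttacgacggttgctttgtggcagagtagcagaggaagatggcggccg
Psma2, chr13:14612992-14613291, plus strand: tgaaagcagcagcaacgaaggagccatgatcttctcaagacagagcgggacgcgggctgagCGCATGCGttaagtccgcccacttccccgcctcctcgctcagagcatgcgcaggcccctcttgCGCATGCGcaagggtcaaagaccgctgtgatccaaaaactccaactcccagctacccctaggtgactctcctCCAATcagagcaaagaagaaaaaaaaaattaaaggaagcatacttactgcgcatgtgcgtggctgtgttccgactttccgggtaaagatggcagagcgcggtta
Psma6, chr12:55398575-55398874, plus strand: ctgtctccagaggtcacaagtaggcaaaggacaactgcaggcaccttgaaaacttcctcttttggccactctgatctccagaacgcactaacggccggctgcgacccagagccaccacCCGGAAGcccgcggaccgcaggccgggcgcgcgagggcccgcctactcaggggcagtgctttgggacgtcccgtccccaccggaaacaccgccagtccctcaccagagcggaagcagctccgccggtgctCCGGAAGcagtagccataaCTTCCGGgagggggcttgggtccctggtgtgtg
Psmd2, chr16:20651402-20651701, plus strand: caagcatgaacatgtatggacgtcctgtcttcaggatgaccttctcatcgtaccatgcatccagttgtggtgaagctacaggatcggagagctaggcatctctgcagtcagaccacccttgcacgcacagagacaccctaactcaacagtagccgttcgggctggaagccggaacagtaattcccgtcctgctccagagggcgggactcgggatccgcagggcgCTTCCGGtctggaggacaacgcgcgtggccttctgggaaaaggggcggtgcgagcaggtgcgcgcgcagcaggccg
Psmd9, chr5:123227940-123228239, plus strand: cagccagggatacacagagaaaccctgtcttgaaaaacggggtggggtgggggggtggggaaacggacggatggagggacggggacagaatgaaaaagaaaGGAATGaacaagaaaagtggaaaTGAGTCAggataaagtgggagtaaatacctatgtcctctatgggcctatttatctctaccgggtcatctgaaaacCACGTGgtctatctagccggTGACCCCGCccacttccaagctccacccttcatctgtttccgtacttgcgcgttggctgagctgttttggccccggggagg

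Windows were found for 36 of the 43 start genes, and 35 of them lay wholly inside the Yap1 region. That of Psmd9 reached 56 bp beyond it. Where a gene had several windows, the 36 are those that best fit the listed distance to the Yap1 region. The backgrounds below take the first window of each gene, so the shares are not fully like for like. The TEAD core was in 3 of the 36 windows (8.33%, 1.75 to 22.5%), those of Psmb5, Psmd8 and Psmd9, against 12.3% of the windows of 6611 genes with a Yap1 region at their start and 14.6% of all 27025 windows. The antioxidant response core was in 6 (16.7%, 6.37 to 32.8%), against 15.6% and 12.5%, and these were Psmb5, Psmb6, Psmc6, Psmd9, Psmd12 and Psme4. The ETS motif was in 13 (36.1%, 20.8 to 53.8%), against 21.0% and 9.12%, the widest gap of the 7 motifs in percentage points. Among them Psma6 and Psmc3ip, the latter no proteasome gene, held it 3 times each. The NF-Y box was in 12 windows (33.3%, against 39.4% and 37.9%), the E-box in 4 (11.1%, against 10.9% and 7.24%), the nuclear respiratory factor 1 motif in Psma2 and Psmg1 (5.56%, against 4.67% and 1.91%) and the AP-1 motif in Psmd9 alone (2.78%, against 3.39% and 5.17%). Psmc4 held none of the 7, and the median ratio was -0.45 in genes with the ETS motif and -0.42 in those without. Each match describes letters and is no evidence of binding by the named factor.

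At their starts, all 43 genes had less average signal in the TAC library than in the sham library on the deposited scale. The background was 96.1% of all 9034 genes with a start region, so the share was near the background. After quantile normalization, which gives both libraries the same distribution, 27 of the 43 had more. The median ratio of all start genes was then 0.01. In whole hearts a lower signal cannot be told apart from fewer cells of a type. The average signal over the region ran from 5.93 to 15.1 in TAC with a median of 9.82, and from 9.05 to 27.3 in sham with a median of 13.4. The ratio was log2((TAC + 1)/(sham + 1)) of the average signal, where adding 1 shrinks the ratio of weak regions. Its median was -0.45 (95% order-statistic interval over genes -0.53 to -0.36), or 1.37-fold in favour of sham, and its quartiles were -0.59 and -0.30. The start regions of all 9034 genes had a median of -0.48 and quartiles of -0.64 and -0.31. Of the 43, 26 lay above that median and 17 below it. By maximum signal 21 lay above and 22 below, with a median of -0.55 for the 43 and -0.52 for all start genes. A difference of at least 1.5-fold lower in TAC was reached by 11 of the 43 (25.6%, 13.5 to 41.2%), against a background of 32.9% of all start genes, so the share was near the background. None was 1.5-fold higher, against a background of 0.0664%. No source used here states how the libraries were scaled to each other or how deep they were. Relative to the median of all regions (-0.54), none of the 43 was 1.5-fold lower or higher, against backgrounds of 0.343% and 2.80%.

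**Figure D1:**
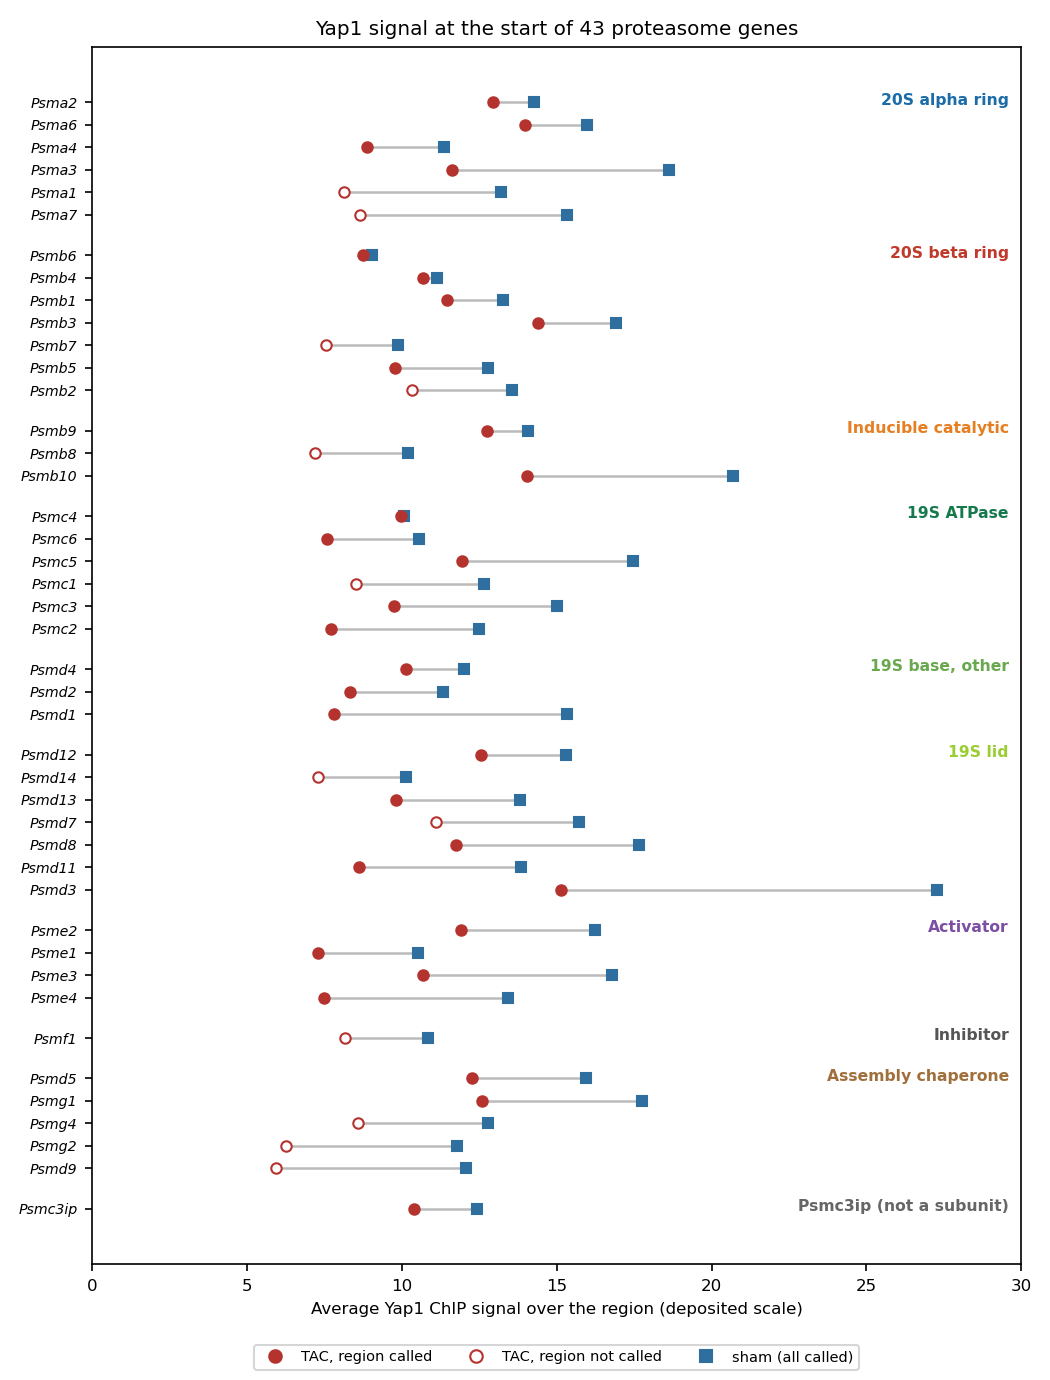
Average Yap1 ChIP signal (x axis, deposited scale) at the start region of 43 genes, in rows grouped by role, for the TAC library (circles, open where the region was not called) and the sham library (squares), joined by a grey line. On this scale, which quantile normalization changes, each circle lies left of its square, and the distance is smallest for Psmc4 (9.98 and 10.1) and largest for Psmd3 (15.1 and 27.3).

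The strength of binding was close to that of other genes with a start region. The median percentile of mean signal over both libraries was 55.3 among the 9034 genes, and 25 of 43 lay above the middle. Psmd3 (percentile 99.2) was the strongest, followed by the inducible catalytic gene Psmb10 (96.3) and the beta subunit gene Psmb3 (91.4). Psmb8 (16.0), Psmb7 (16.2) and the deubiquitinase gene Psmd14 (16.2) were the weakest. The TAC library had a call at 31 of the 43 start regions (72.1%, 56.3 to 84.7%), against a background of 68.2%, and the sham library at all 43, against 98.4%. The 12 called in sham only were Psma1, Psma7, Psmb2, Psmb7, Psmb8, Psmc1, Psmd7, Psmd9, Psmd14, Psmf1, Psmg2 and Psmg4. Their average signal in TAC ran from 5.93 to 11.1, and that of the 31 called in both from 7.30 to 15.1. The ranges overlapped, but the 12 had a lower median signal in TAC, 8.14 against 10.7. Their median ratio was -0.49, against -0.42 for the 31. A missing call thus went with a lower signal in TAC, without a clean cut between the groups. Across the 43 genes the average signals of the libraries had a Pearson correlation of 0.74 and a Spearman correlation of 0.73, against 0.77 and 0.73 over all start genes. These points share 2 libraries. The ratio had no clear relation to the mean signal (Spearman -0.02).

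**Figure D2:**
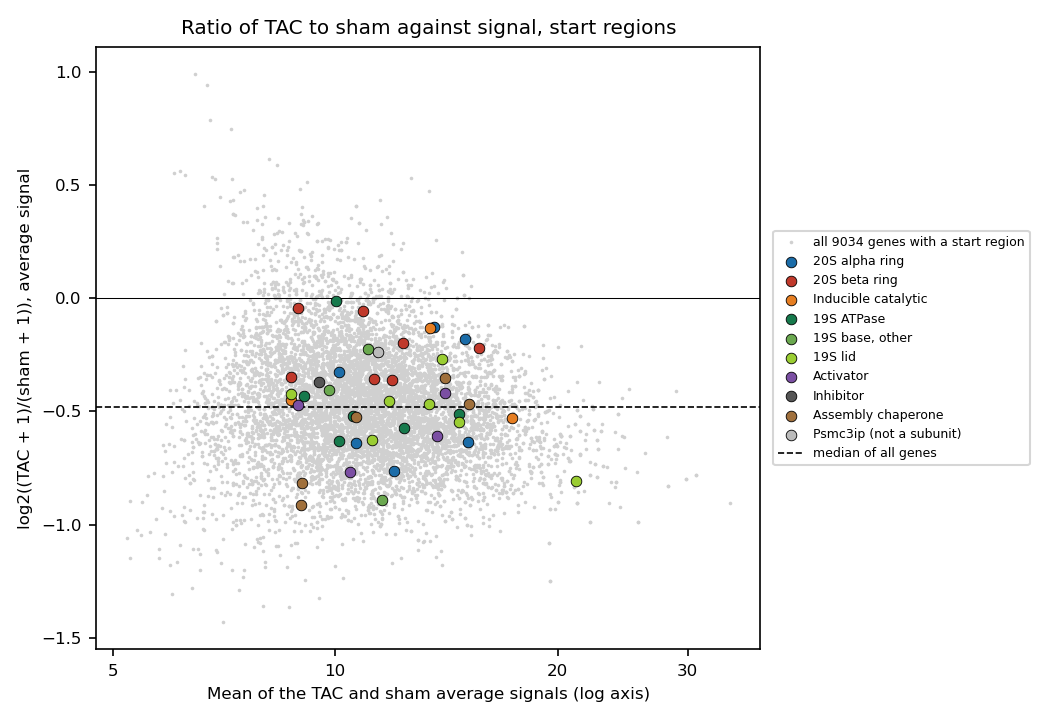
Ratio of TAC to sham average signal (y axis, log2 with 1 added to each) against the mean of both signals (x axis, log scale) for the start regions of 9034 genes (grey) and of 43 proteasome genes, coloured by role. The dashed line is the median of all genes (-0.48), and the proteasome genes lie on both sides of it, between -0.91 and -0.01.

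The 7 constitutive beta subunit genes all lay above the median ratio of all start genes. They ran from -0.36 to -0.04 with a median of -0.22, at ratio percentiles of 69.0 to 94.9 among all start genes. None was 1.5-fold lower in TAC, against a background of 32.9%. They did not stand apart: genes of other roles lay in the same range, among them Psma2 (-0.13), Psmb9 (-0.13) and Psmd4 (-0.22). Psmc4 (-0.01) lay above it. Psmb6, the gene of the subunit with caspase-like activity, had 8.74 in TAC and 9.05 in sham (-0.04), in a region at chr11:70524643-70526040. Psmb4, a structural subunit gene, had 10.7 in TAC and 11.1 in sham (-0.05). Both genes were at nearly the same level in the libraries. Psmb1 had 11.4 in TAC and 13.3 in sham (-0.20). Its region spans the Psmb1 start and is also listed for the divergent gene of the TATA-binding protein, Tbp. Psmb3, also structural, had 14.4 in TAC and 16.9 in sham (-0.22). The other catalytic genes were a little lower in TAC: Psmb7, with trypsin-like activity, had 7.55 in TAC and 9.88 in sham (-0.35), and Psmb5, with chymotrypsin-like activity and the main target of proteasome inhibitors, had 9.77 in TAC and 12.8 in sham (-0.36). Psmb2 had 10.3 in TAC and 13.6 in sham (-0.36), the lowest ratio of the ring. All 7 also lay above the median of all start genes with a pseudocount of 0.1 or 5 and after quantile normalization, where their ratios were 0.12 to 0.44 and the median of all start genes was 0.01. By maximum signal, the highest value within the region, 5 of 7 did: Psmb6 (24 in TAC, 19 in sham) and Psmb1 (30 in TAC, 29 in sham) were higher in TAC, while Psmb2 (21 and 32 in TAC and sham) and Psmb5 (28 and 49 in TAC and sham) lay below.

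The alpha ring genes were split. The 6 with a region had ratios of -0.76 to -0.13 with a median of -0.48, 3 of them above the median of all start genes and 3 below it. Psma2 had 12.9 in TAC and 14.3 in sham (-0.13) in a region shared with the divergent mitochondrial ribosomal protein gene Mrpl32. Psma6 had 14.0 in TAC and 16.0 in sham (-0.18), and its maximum of 51 in TAC was the highest of all 43 genes in that library, against 53 in sham. Psma4 had 8.87 in TAC and 11.4 in sham (-0.32). The other 3 of the 6 were each over 1.5-fold lower in TAC, against a background of 32.9% of all start genes. Psma3 had 11.6 in TAC and 18.6 in sham (-0.64), Psma1 8.12 in TAC and 13.2 in sham (-0.64), and Psma7 8.64 in TAC and 15.3 in sham (-0.76). By maximum signal 2 of the 6 lay above the median of all start genes, Psma2 and Psma6.

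The inducible catalytic genes differed among themselves, also between neighbours. Psmb9 had 12.8 in TAC and 14.1 in sham (-0.13) at chr17:34186143-34188738, on the promoter it shares with the divergent peptide transporter gene Tap1. Psmb8, its neighbour on the same chromosome, had 7.20 in TAC and 10.2 in sham (-0.45) at its own start, in a region without a CpG island or a TAC call. Psmb10 lies elsewhere, on chromosome 8, and had 14.0 in TAC and 20.7 in sham (-0.53), in a region listed for 5 genes. Of 14 leukocyte marker genes, 1 had a region at its start, Cd68, with 10.2 in TAC and 13.3 in sham (-0.36), in a region listed for 7 genes. A further 3 had a region only elsewhere, each listed with other genes: Cd79a (-0.998), Tyrobp (0.03) and Spi1 (-0.77), which the table lists as Sfpi1 at a region of the cardiomyocyte gene Mybpc3. The part of leukocytes in the inducible gene values was not tested.

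**Figure D3:**
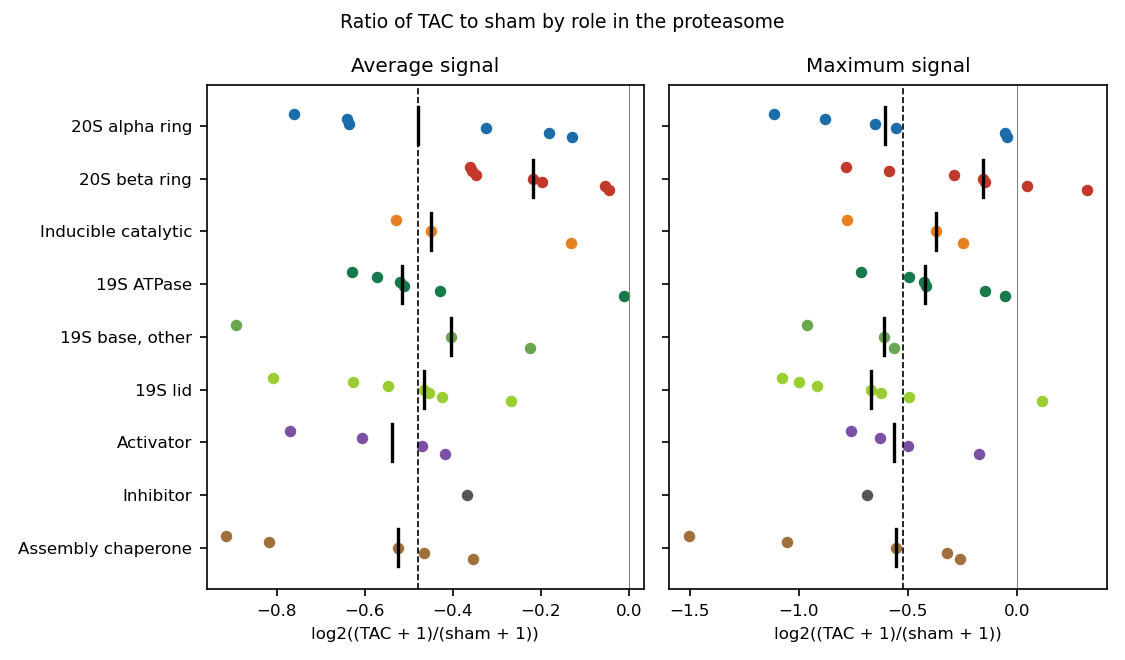
Ratio of TAC to sham at the start regions (x axis, log2 with 1 added) by role in the proteasome, for average signal (left) and maximum signal (right). Points are genes, short bars are medians of groups of 2 or more, dashed lines are the medians of all start genes (-0.48 and -0.52), and the beta ring has the highest median in both panels (-0.22 and -0.16).

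The 19S genes centred on the median of all start genes, with 8 of 16 above it and 8 below. Among the 6 ATPase genes of the base, Psmc4 stood at the top, with 9.98 in TAC and 10.1 in sham (-0.01) at chr7:28049252-28050832, the highest ratio of all 43. The other 5 ran from -0.63 to -0.43. Psmc2 had 7.73 in TAC and 12.5 in sham (-0.63), Psmc3 9.75 in TAC and 15.0 in sham (-0.57), and Psmc5 11.9 in TAC and 17.5 in sham (-0.51). Psmc1 had 8.52 in TAC and 12.6 in sham (-0.52), and Psmc6 7.58 in TAC and 10.6 in sham (-0.43). By maximum signal 5 of the 6 ATPase genes lay above the median of all start genes in place of 2. Of the 3 other base genes 0 did, in place of 2, and of the 7 lid genes 2 did, in place of 4. Over the 16 genes, 7 lay above it by maximum signal and 9 below.

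The base also holds scaffold and ubiquitin-binding subunits. Psmd1, the gene of the largest scaffold subunit, had 7.80 in TAC and 15.3 in sham (-0.89), the second lowest ratio of the 43. Psmd2, the other scaffold gene, had 8.31 in TAC and 11.3 in sham (-0.41), and the ubiquitin receptor gene Psmd4 had 10.1 in TAC and 12.0 in sham (-0.22). The lid genes ran from -0.81 to -0.27. Psmd3 had the strongest start signal of the family in both libraries, 15.1 in TAC and 27.3 in sham (-0.81), at chr11:98681670-98683756. Psmd12 was at the other end, with 12.5 in TAC and 15.3 in sham (-0.27) and a maximum of 38 in TAC and 35 in sham. Psmd11, which in worms and human stem cells is linked to high proteasome activity, had 8.61 in TAC and 13.8 in sham (-0.63). The remaining lid genes were near the middle: Psmd8 (11.8 in TAC, 17.7 in sham), Psmd7 (11.1 in TAC, 15.7 in sham), Psmd13 (9.82 in TAC, 13.8 in sham) and Psmd14 (7.30 in TAC, 10.1 in sham) had ratios of -0.55 to -0.42.

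Activator and chaperone genes had median ratios of -0.54 and -0.53, with 2 of 4 and 2 of 5 genes at least 1.5-fold lower in TAC. The background was 32.9% of all start genes, and groups of this size were not tested against it. Psme4, the gene of a large single-chain activator, had 7.47 in TAC and 13.4 in sham (-0.77), and Psme3, of the nuclear activator, 10.7 in TAC and 16.8 in sham (-0.61). Psme1 and Psme2, whose products form the interferon-inducible activator ring, lie close together on chromosome 14. Psme1 had 7.30 in TAC and 10.5 in sham (-0.47), and Psme2 had 11.9 in TAC and 16.2 in sham (-0.42). The gene of the inhibitor Psmf1 had 8.17 in TAC and 10.8 in sham (-0.37). Among the 5 assembly chaperone genes with a region, Psmd9 had 5.93 in TAC and 12.1 in sham (-0.91, 1.89-fold higher in sham), the lowest ratio and the lowest TAC signal of the 43, in a region of 940 bp at chr5:123227996-123228936. Psmg2 had 6.25 in TAC and 11.8 in sham (-0.82). Both were without a call in TAC. The other 3 chaperone genes lay nearer the median of all start genes: Psmg4 had 8.58 in TAC and 12.8 in sham (-0.53), Psmg1 12.6 in TAC and 17.8 in sham (-0.47), and Psmd5 12.3 in TAC and 15.9 in sham (-0.35).

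Away from the starts, regions listed for proteasome genes were weaker, as were regions of all genes. All regions spanning no gene start had median signals of 6.65 in TAC and 9.76 in sham. All regions spanning a gene start had 9.11 in TAC and 12.7 in sham. TAC called 40 of the 67 regions (59.7%), against a background of 48.7% of all regions. Of the 67, 24 spanned no proteasome gene start, and 22 genes had more than 1 region. The 24 had a median signal of 7.14 in TAC and 11.1 in sham and a median ratio of -0.59 (-0.68 to -0.46). Of them, 14 spanned the start of another gene, with a median ratio of -0.60 (-0.86 to -0.44), against -0.48 for all 7645 regions that span a gene start. TAC called 7 of these 14, against a background of 66.4%, and 9 were at least 1.5-fold lower in TAC, against 33.2%. The other 10 spanned no gene start, with a median ratio of -0.55 (-0.65 to -0.38), against -0.57 for all 14375 such regions. TAC called 2 of these 10, against a background of 39.2%, and 4 were at least 1.5-fold lower in TAC, against 48.2%. Neither group was tested. The region of highest maximum, 49 in TAC and 116 in sham, was listed 15923 bp downstream of the Psmc3 start and spans the start of the zinc transporter gene Slc39a13. A region 20838 bp downstream of the Psmd2 start, with 7.34 in TAC and 14.8 in sham (-0.92), spans the start of the translation factor gene Eif4g1. At -9715 bp from the Psmd12 start, a region with 11.2 in TAC and 17.4 in sham (-0.60) spans the start of Pitpnc1. Regions off the start give the value of 7 genes when a gene is represented by its strongest region: Psma3, Psmb8, Psmb11, Psmc3, Psmd2, Psmd12 and Psme1.

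**Figure D4:**
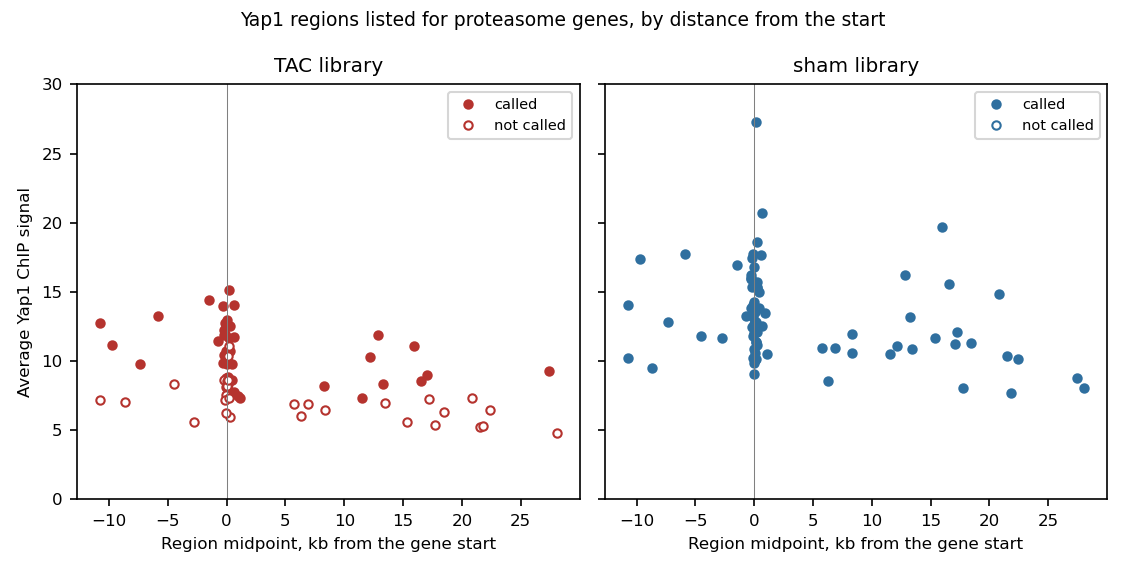
Average Yap1 signal (y axis, deposited scale) of the regions listed for 44 proteasome genes against the distance of the region's midpoint from the gene's start (x axis, kb), in the TAC library (left) and the sham library (right), with open circles for regions not called in that library. A region listed for several of the genes appears once for each, and most regions away from the start are open in TAC, while none is open in sham.

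Of the 24 regions, 3 were listed for a single gene. The region 27427 bp downstream of the Psmd5 start was the 1 region of the 67 with more average signal in TAC on the deposited scale, 9.24 in TAC and 8.77 in sham (0.07). Within Psme4, 28047 bp from the start, a weak region had 4.76 in TAC and 8.03 in sham (-0.65). Psmg4 had a region at -8669 bp with 7.06 in TAC and 9.52 in sham (-0.38). Among the Psme1 and Psme2 regions, 4 in all and each listed for both genes, the one with 5.55 in TAC and 11.7 in sham (-0.95), the lowest ratio of the 67, spans the start of Fitm1, which encodes a lipid droplet protein of muscle.

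By strongest region, the median ratio of the 44 genes was -0.43 (-0.53 to -0.36), that of all 13464 genes was -0.50, and 18 of 44 lay below -0.50. Of the 44, 13 were at least 1.5-fold lower in TAC (29.5%), against a background of 36.3%, and none was higher, against 0.208%. For 32 of the 44 genes that region was called in TAC, against 69.0% of all genes. The 44 genes share 41 regions, of which 29 were called in TAC. The median percentile of signal was 56.7. At start regions, cytosolic ribosomal protein genes had a median ratio of -0.40 over 75 genes and mitochondrial ribosomal protein genes -0.47 over 62, beside -0.45 for the proteasome genes. These differences were not tested.

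Genes that feed or control the proteasome, by strongest region, had list medians on both sides of that of all genes (-0.50). Of 7 further proteasome factors, 6 had a region, with a median of -0.38: Pomp, the core maturation factor gene, had 12.3 in TAC and 13.3 in sham (-0.11) and Shfm1, of a small lid subunit, 10.5 in TAC and 12.3 in sham (-0.20), while the ubiquitin receptor gene Adrm1 had 6.22 in TAC and 11.6 in sham (-0.80) and Akirin2, of a nuclear import adaptor of proteasomes, 7.24 in TAC and 11.0 in sham (-0.55). All 11 genes of transcriptional and other regulators had a region, with a median of -0.59 and 6 below the median of all genes. Mafk, of a partner of the Nfe2l factors, had 16.8 in TAC and 30.3 in sham (-0.81), and Zfand5 12.0 in TAC and 21.6 in sham (-0.80). The strongest regions of Ngly1, of the glycanase that activates Nfe2l1, and of Mafg lie off their starts, with 10.7 in TAC and 11.3 in sham (-0.07) for Ngly1 and 10.5 in TAC and 11.1 in sham (-0.07) for Mafg. At its own start Ngly1 had 6.27 in TAC and 11.3 in sham (-0.76). Nfe2l1 itself, the factor that raises proteasome genes when the proteasome is blocked, had 11.5 in TAC and 18.4 in sham (-0.63).

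Ubiquitin and shuttle genes had a region in 14 of 16 cases, with a median of -0.53 and 10 below the median of all genes. Uba6, of a ubiquitin-activating enzyme, had 8.61 in TAC and 8.44 in sham (0.03), and Rps27a, of a ubiquitin fusion protein, 11.8 in TAC and 14.0 in sham (-0.23). At the low end were Uba1 (7.90 in TAC, 13.7 in sham) and Nploc4 (6.83 in TAC, 11.8 in sham), at -0.73 and -0.71, both in regions away from the gene's start. All 12 cardiac ubiquitin ligase genes had a region at their start, with a median of -0.64 and 10 below. Trim54, of a sarcomeric ligase, had 7.70 in TAC and 14.7 in sham (-0.85) and Asb2 7.61 in TAC and 14.4 in sham (-0.84). At the high end were Stub1 (-0.46) and Cblb (-0.36).

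The labelled tissue was set against marker genes: 12 of 12 cardiomyocyte marker genes had a region at their start and 0 of 10 hepatocyte and neuronal genes did. Of these 10, 4 had a region only elsewhere: Ttr, Apoa1, Syt1 and Slc17a7. Of the markers of other heart cells, 5 of 8 endothelial, 2 of 8 fibroblast and 1 of 8 smooth muscle and pericyte genes had one. The median ratio at the start was -0.78 for the cardiomyocyte genes, with 12 of 12 below the median of all start genes. It was -0.35 for the 5 endothelial genes, with 5 of 5 above that median. By strongest region, 7 endothelial genes had a median of -0.45, with 5 above the median of all genes (-0.50). The 2 below it were Egfl7 (-0.76) and Tek (-0.62), in regions away from their starts. The part of cell composition in the proteasome gene values was not tested.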

How the data were processed

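Yap1 ChIP-seq of mouse hearts gave 1 TAC and 1 sham library. The submitters' processing notes name BWA, MACS 1.4.2 and mm10. Per the file headers, the deposited table holds the average and the maximum signal of each library over merged regions, call marks, listed genes, distances from region midpoint to gene start, and counts of promoters and CpG islands. Every region was called in at least 1 library. No source used here states read depth, peak threshold or scaling, so depth is unknown and no interval covers it; intervals of shares (exact binomial) and of medians (order statistics) leave out variation between mice.

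Computed here, with Python 3.11.15, pandas 2.3.3 and scipy 1.17.1, were log2((TAC + 1)/(sham + 1)) and a fixed size of 1.5-fold. A start region contains the gene's start, placed by the listed distance from its midpoint. For summaries by gene, the region of highest mean signal represents the gene. The calculation was tested on simulated data. The members, role lists and alternatives were chosen with earlier results of these data known. Named genes were those with the 10 highest and 10 lowest ratios, the 5 strongest in each library, the extremes of each role and of each further list, and genes with several regions; other genes named were chosen after their values were seen. Promoter sequences are from RefSeq, GRCm38.p6. No column of per-sample values was left unused.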

Additional observations from a re-analysis of the deposited data

How the results depend on the processing

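These values belong to the summaries by strongest region unless a start region is named. The median ratio of the 44 genes (-0.43) was -0.33 with a pseudocount of 5, -0.54 by maximum signal, 0.11 after centring on the median of all regions and 0.0761 after quantile normalization, where all genes had -0.37, -0.54, 0.04 and 0.00366. The direction on the deposited scale therefore rests on the scaling between libraries. Of the 44, 13 genes were at least 1.5-fold lower in TAC, against 36.3% of all genes. This count became 5 with a pseudocount of 5 (against 12.2% of all genes) and 0 after centring (0.795%). It was also 0 after quantile normalization (0.624%) and at 2-fold (2.18%). With regions called in both libraries it was 8 of 33 (31.3%), and with regions listed for 1 gene 4 of 15 (41.3%). The 18 genes below the median of all genes were 11 of 33 and 6 of 15 under those 2 region filters. Of the 67 regions 59.7% were called in TAC, against 76.0% of those at or above the median mean signal, 41.2% of those listed for 1 gene and 72.1% of those nearest a start. A promoter was counted to 91.0% of the 67 regions, against 44.4% of all regions, and to 100% of those nearest a start. The ratio of Psmd12 changed sign by maximum signal (0.12) and after quantile normalization (0.25); on the deposited average its strongest region is that at the Pitpnc1 start (-0.60), and in those settings it is its own start region. A pseudocount of 0.1, promoter regions only, leaving out Psmc3ip or the sex chromosomes, and the mean over all regions of a gene kept every summary within its interval or within 1.5 times, and so did CpG island promoters only, added after seeing the data. Also added then, quantile normalization of the maximum signal had 5 of 7 beta genes above the median of all start genes. No paired analysis was possible because each operation has 1 library, and leaving out a replicate was not possible either.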
